A study of Homo sapiens with 6 samples.

Results

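The RAS, RAF, MEK and ERK genes described here are the 7 listed members of the mitogen-activated protein kinase (MAPK) cascade: NRAS and HRAS, which encode RAS GTPases, BRAF and ARAF, which encode RAF kinases, MAP2K1 and MAP2K2, which encode the MEK1 and MEK2 kinases, and MAPK3, which encodes the ERK1 kinase. They were listed by name, with no threshold on their values, and all 7 were found in both count tables, among 16663 genes in the tables together. Transcripts were counted as unique molecular identifiers (UMIs) in single cells of a pair of human cancer cell lines under a kinase inhibitor, with the 3′ chemistry of the Chromium platform. A375 is a melanoma line with the activating BRAF V600E mutation. Its 9 populations were untreated cells and cells adapted by dose escalation to dabrafenib, an inhibitor of mutant BRAF, in steps of 30, 60, 125, 250 and 500 nM followed by 1, 2 and 4 µM. PC9 is a lung adenocarcinoma line with an activating deletion in EGFR, the receptor tyrosine kinase that osimertinib inhibits. Its 10 populations were untreated cells, cells adapted to osimertinib in steps of 8, 16, 32, 75, 150, 300 and 600 nM followed by 1.2 µM, and persisters that survived an acute 9-day exposure to 1.2 µM. The cells of a line were tagged by population and sequenced as 1 pool. With 1 culture per population there is no spread between cultures to test against, so differences are described without p-values. Every comparison with untreated cells uses the 1 untreated culture of that line, so such comparisons are not independent of each other. Values in parentheses are 95% intervals for counting error alone. Levels are UMIs of a gene per 1000000 UMIs of the population (CPM), and are read across populations of 1 gene, not between genes.

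The A375 table held 8505 cells and 87053189 UMIs, and that of PC9 11258 cells and 77210300 UMIs. Population totals ran from 2938641 UMIs in A375 at 125 nM to 21976644 in untreated A375, and median UMIs per cell from 5776 to 9804. The 125 nM A375 population stood apart, with the fewest cells (379) and with mitochondrial transcripts at 20% or more of UMIs in 8.71% of its cells, against 0.796% of untreated and 10.6% of 4 µM cells. Across the lines 27 cell barcodes occurred in both tables, and none was repeated within a line. Of 8 melanocyte lineage markers, A375 had SOX10 at 29.1 to 211 CPM, MITF at 73.4 to 207.5 CPM and S100B at 36.2 to 358 CPM, and DCT from 6.55 to 110.1 CPM, while PMEL was at most 4.42 CPM and MLANA, TYR and TYRP1 were near 0. PC9 had the general epithelial markers EPCAM, CDH1, KRT7, KRT8, KRT18 and KRT19, with EPCAM at 268.5 to 441 CPM. The lung markers NKX2-1 and SFTPB were looked for and had no entry in the counts of either line. Lung identity was therefore not shown by these markers. The epithelial KRT18 was also found in A375, at 257 to 895 CPM, and MITF was also found in PC9, at 33.55 to 83.5 CPM. Immune and erythroid markers were at or near 0 in both lines.

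In the cascade, a receptor such as EGFR recruits exchange factors that load RAS with GTP. Loaded RAS brings RAF kinases to the membrane, RAF phosphorylates the MEK kinases, and MEK phosphorylates the ERK kinases, which act on cytoplasmic targets and on transcription factors. BRAF V600E signals without RAS, which is why melanoma cells that carry it are sensitive to dabrafenib. ERK raises the transcription of its own inhibitors, among them dual-specificity phosphatases and Sprouty proteins, so levels of those genes are often read as its output. Kinase activity and protein levels were not measured here.

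All positions are on GRCh38, from GENCODE v29. NRAS lies on chromosome 1 at 114704469 to 114716894, HRAS on chromosome 11 at 532242 to 537287, BRAF on chromosome 7 at 140719327 to 140924928, MAP2K2 on chromosome 19 at 4090321 to 4124129 and MAPK3 on chromosome 16 at 30114105 to 30123506, all on the minus strand. ARAF lies on chromosome X at 47561100 to 47571920 and MAP2K1 on chromosome 15 at 66386817 to 66492312, both on the plus strand. ARAF, BRAF and MAP2K1 overlap SYN1, NDUFB2 and SNAPC5, in that order, each on the opposite strand. Pseudogenes are annotated for BRAF (1), ARAF (3) and MAP2K1 (1), and how shared or antisense reads were counted is not given in the sources used here.

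The bases before the start of both MEK genes and of HRAS are shown because most 1.5-fold differences from untreated cells described below were of these 3 genes. They are RefSeq sequences (GRCh38.p14), 5′ to 3′ on the gene's strand, limited to bases that no annotated exon covers. Capitals mark matches of 2 motifs on either strand, the GC box GGGCGG, which SP/KLF factors bind, and the core CCGGAAG of ETS factors, a family with members that ERK phosphorylates.
MAP2K1: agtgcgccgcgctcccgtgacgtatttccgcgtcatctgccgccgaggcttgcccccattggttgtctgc
MAP2K2: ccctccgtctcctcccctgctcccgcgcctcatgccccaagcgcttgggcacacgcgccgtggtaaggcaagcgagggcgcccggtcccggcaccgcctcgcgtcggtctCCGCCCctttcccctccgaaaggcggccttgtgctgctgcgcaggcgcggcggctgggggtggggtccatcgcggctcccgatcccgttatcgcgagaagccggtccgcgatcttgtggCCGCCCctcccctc
HRAS: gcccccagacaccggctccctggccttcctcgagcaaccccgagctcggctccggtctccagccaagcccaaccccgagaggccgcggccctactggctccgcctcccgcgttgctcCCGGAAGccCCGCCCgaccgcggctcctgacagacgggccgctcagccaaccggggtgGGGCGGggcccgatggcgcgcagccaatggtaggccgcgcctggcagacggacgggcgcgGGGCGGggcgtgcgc
The MAP2K1 stretch is chr15:66386747-66386816, the MAP2K2 stretch chr19:4124130-4124372 and the HRAS stretch chr11:535577-535826. The HRAS start is that of RefSeq and lies inside the GENCODE span of the gene, because 1 GENCODE transcript begins farther upstream, and the stretch falls in an intron of that transcript. Over the whole window of 250 bases before the start, 3 GC boxes were found for MAP2K1, 2 for MAP2K2 and 3 for HRAS, and 42.6% of 35116 such windows in the genome held at least 1. In MAP2K1 these lie in exon-covered bases that are not printed. The ETS core was found once, in the HRAS window, and is in 8.52% of windows. None of these 3 windows held the E-box CACGTG, the AP-1 site TGACTCA or the CRE site TGACGTCA, which are in 6.34%, 4.2% and 1.65% of windows. Their GC content was 71.2%, 74% and 77.2%, against a median of 58% over all windows.

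Changes of the 7 genes were small in most populations. A gene was counted as higher or lower when its CPM differed at least 1.5-fold from untreated cells. It was measured when the higher population had at least 10 CPM and 20 UMIs. In A375, 0 of 56 pairs of a gene and an adapted population were higher and 7 were lower, where 9.65% of pairs over all measured genes were higher and 17.1% lower. The 7 lower pairs were HRAS at 125 and 250 nM, MAP2K2 and MAPK3 at 125 nM, and MAP2K1 at 500 nM, 2 µM and 4 µM. In PC9, 0 of 54 measured pairs were higher and 2 were lower, HRAS at 300 nM and in persisters, where 14.3% of pairs over all genes were higher and 11% lower. These counts, by CPM, are at or below the background shares. No A375 pair and 1 PC9 pair, HRAS in persisters, reached 2-fold, where 7.1% and 4.08% of pairs over all genes were at least 2-fold lower. The A375 count depended on the scaling, with 0 higher and 7 lower by CPM but 4 higher and 3 lower when populations were scaled by the median of ratios, and 2 higher and 4 lower with trimmed mean (TMM) factors. All pairs that became higher under these scalings were of MAP2K2. Without the 125 nM population 4 A375 pairs were lower. In PC9 the lower pairs became 6 under either scaling, all of them HRAS. Shares over all genes were computed by CPM only, so counts under the other scalings have no background share.

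In A375 the balance of the MEK genes was shifted toward MAP2K2 by at least 10 points of share at 30 nM and from 500 nM on, and less or the other way at the doses between. MAP2K1 was highest in untreated cells, at 62.2 CPM, and lowest at 2 µM, at 37.6 CPM. In order of dose it stood at 48.2, 51.9, 51.4, 43.9, 38.9, 41.7, 37.6 and 40.2 CPM. All 8 adapted populations were below untreated cells with intervals that excluded equality, except that the interval at 125 nM included it with median-of-ratios scaling and with a total without mitochondrial and ribosomal protein genes. These 8 comparisons share 1 untreated culture. The level was 1.60-fold lower at 500 nM (1.40 to 1.83), 1.65-fold lower at 2 µM (1.465 to 1.87) and 1.55-fold lower at 4 µM (1.37 to 1.76), where 17%, 23.4% and 21.9% of all measured genes were at least 1.5-fold lower. Under the 9 alternatives that apply to a ratio, 1.5-fold was reached in 8 at 500 nM, 6 at 2 µM and 3 at 4 µM.

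MAP2K2 did not follow MAP2K1. It stood at 152 CPM in untreated A375 cells, at 206, 145, 100, 121 and 217 CPM from 30 to 500 nM, and at 212, 223 and 210.4 CPM from 1 to 4 µM. Levels at 5 doses therefore lay above untreated cells, by 1.35-fold at 30 nM (1.27 to 1.44), 1.43-fold at 500 nM (1.34 to 1.52), 1.39-fold at 1 µM (1.31 to 1.47), 1.46-fold at 2 µM (1.38 to 1.55) and 1.38-fold at 4 µM (1.30 to 1.465). The 125 and 250 nM populations lay below, the first by 1.52-fold (1.35 to 1.72), where 17.7% of all genes were at least 1.5-fold lower, a call kept in 3 of the 9 alternatives. In the order of levels, 125 nM, 250 nM and the pair of 60 nM and untreated cells were separate steps, and the other 5 populations did not differ from their neighbours beyond counting error. The largest step between neighbouring doses was from 250 to 500 nM, 1.79-fold higher (1.65 to 1.95), where 10.2% of genes were at least 1.5-fold higher.

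The share of MAP2K1 among UMIs of both MEK genes does not depend on how populations are scaled. It was 29% (27.7 to 30.3) in untreated A375 cells and 18.95%, 26.4%, 33.9% and 26.6% from 30 to 250 nM. From 500 nM to 4 µM it was 15.2%, 16.4%, 14.4% and 16.0%. The dose order was thus broken, with a low share at 30 nM, shares near or above untreated from 60 to 250 nM, and low shares from 500 nM on. The difference from untreated cells was -10.05 points at 30 nM (-12.2 to -7.77) and -13.0 points at 4 µM (-15.0 to -10.8), and at 250 nM its interval included 0 (-5.08 to 0.361). Summed over both genes, MEK transcripts ran from 151 CPM at 125 nM to 261 CPM at 2 µM, against 215 CPM in untreated cells.

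In PC9 the MEK genes stayed close to untreated cells. MAP2K1 had a lowest level of 73.3 CPM in persisters, a median of 93.8 CPM and a highest level of 97.3 CPM at 75 nM, and it was 96.3 CPM in untreated cells. MAP2K2 ranged from 90.7 CPM in persisters through a median of 101 CPM to 111 CPM at 8 nM, and was 97.5 CPM in untreated cells. The persister level of MAP2K1 was 1.31-fold below untreated (1.16 to 1.485), under the 1.5-fold threshold, and separate from the next higher population. The MAP2K1 share was 49.7% in untreated cells and 44.2% to 49.0% in the other 9 populations, and the interval of its difference from untreated cells excluded 0 at 8 nM, at 300 nM and in persisters. At 1.2 µM the difference was -2.20 points (-5.53 to 1.15).

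**Figure D1:**
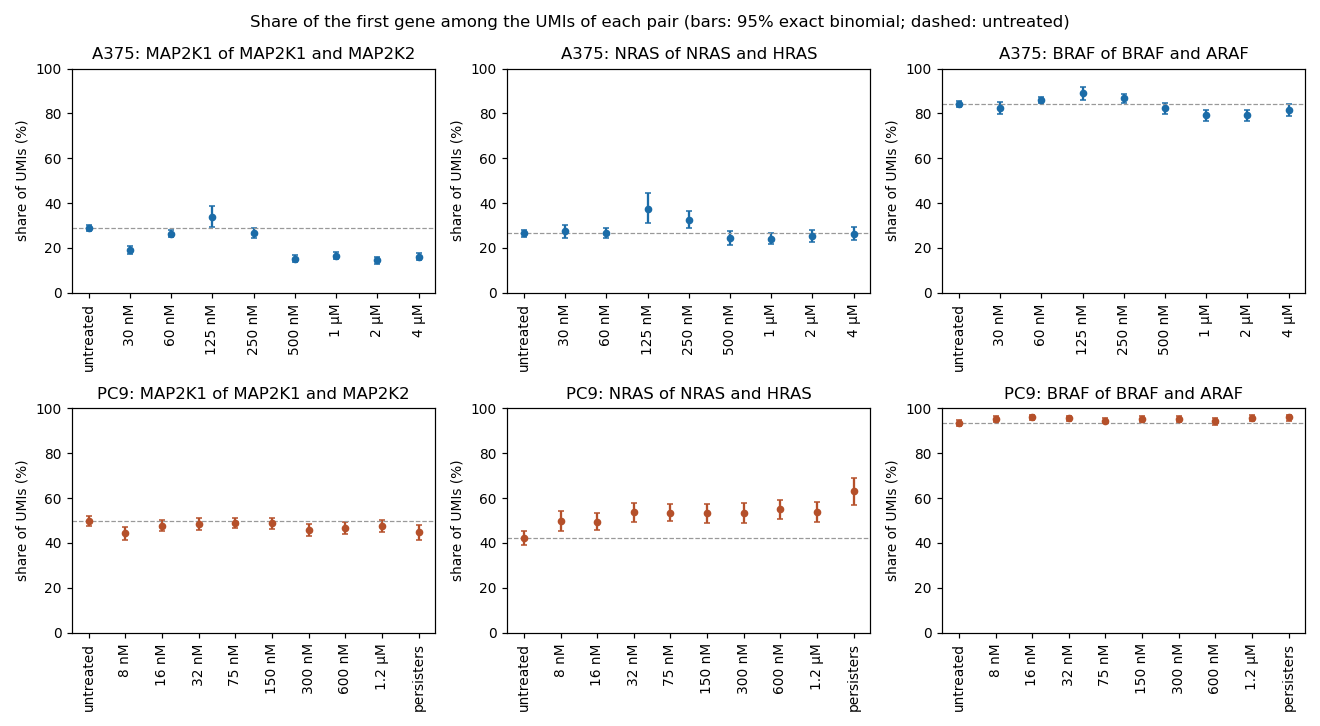
Share of the first gene among UMIs of both genes of the pair, in percent, for MAP2K1 of MAP2K1 and MAP2K2, NRAS of NRAS and HRAS, and BRAF of BRAF and ARAF, by population, with 95% exact binomial intervals. The MAP2K1 share in A375 is 29% in untreated cells and 14.4% to 16.4% from 500 nM to 4 µM, and the NRAS share in PC9 is highest in persisters at 63.3%.

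The A375 populations with a low MAP2K1 share were also those with low summed RNA of ERK output genes. Over 19 ERK-induced genes, among them DUSP and SPRY family members, summed levels were 2577 CPM in untreated cells, 1192 CPM at 30 nM, then 2684, 2630 and 2207 CPM at 60, 125 and 250 nM, and 1262, 1170, 1207 and 1154 CPM from 500 nM to 4 µM. The same 5 populations thus had the lowest shares and the lowest summed RNA of these genes, and a link between them was not tested. The split was not particular to the MEK share. BRAF stood at 89.2 to 109 CPM in these 5 populations and at 117 to 151 CPM in the rest. The median log2 ratio of the measured output genes to untreated cells was -1.11 at 30 nM, 0.12, 0.05 and 0.01 at the next 3 doses, and -0.94 to -1.20 from 500 nM on, against -0.07 at 30 nM and -0.17 at 4 µM over all genes. Median mitochondrial share also moved with dose, from 5.22% in untreated cells to 5.56% at 30 nM, 6.07% at 500 nM and 7.67% at 4 µM, and its part in the MEK share was not tested. Its values at 60, 125 and 250 nM were 6.48%, 7.0% and 6.92%, and at 1 and 2 µM 6.36% and 6.53%. Markers of other cell types moved as well. The 4 fibroblast markers summed to 10.6 CPM in untreated cells, 104.5 CPM at 30 nM, 39.6, 41.9 and 18.1 CPM at the next 3 doses and 37.0, 42.9, 61.1 and 95.8 CPM from 500 nM to 4 µM, led by LUM. The lung and epithelial list summed to 488 CPM in untreated cells, 638 CPM at 30 nM, 302 to 603 CPM from 60 to 250 nM and 882 to 1015 CPM from 500 nM on, most of it KRT18. Melanocyte markers summed to 454 CPM in untreated cells, 564 to 773 CPM from 30 to 250 nM, 370 CPM at 500 nM and 180 to 214 CPM from 1 µM on. Their part in the MEK share was not tested. In PC9 the same 19 output genes summed to 1483 CPM in untreated cells, 991 to 1303 CPM in adapted cells and 945 CPM in persisters. The MAP2K1 share there was 44.25% to 49.0% in treated populations, against 49.7% in untreated cells.

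Within single populations the share also differed between the clusters that the authors' cell tables give. These tables list 59.5% of A375 cells, from 22.0% of untreated cells to 81.2% of an adapted population, and how the cells were chosen is not stated. At 1 µM the MAP2K1 share was 18.5% (15.8 to 21.4) in cluster 6 and 9.07% (6.74 to 11.9) in cluster 7, and at 500 nM, 2 µM and 4 µM it was 17.1%, 15.8% and 13.1% in cluster 6 against 8.0%, 10.6% and 8.89% in cluster 7, with overlapping intervals at 4 µM. Other clusters of at least 50 cells at these doses ranged from 10.0% to 16.9%. Both ends were of cluster 3, at 500 nM (5.10 to 17.2) and at 1 µM (9.54 to 26.7), so low shares were not particular to cluster 7. At 60 nM, cluster 1 had 28.2% (25 to 31.6) and cluster 3 20% (15.8 to 24.7). Cluster 7 as a whole also had low BRAF, 51.0 CPM, and high MAP2K2, 265 CPM, against 116 and 214 CPM in cluster 6. The clusters were made from these cells' own transcripts, so the values are a description. Among listed cells the share was 25.65% untreated and 12.8% at 4 µM, and among the other cells 29.7% and 20.6%, so the difference ran the same way in both.

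**Figure D2:**
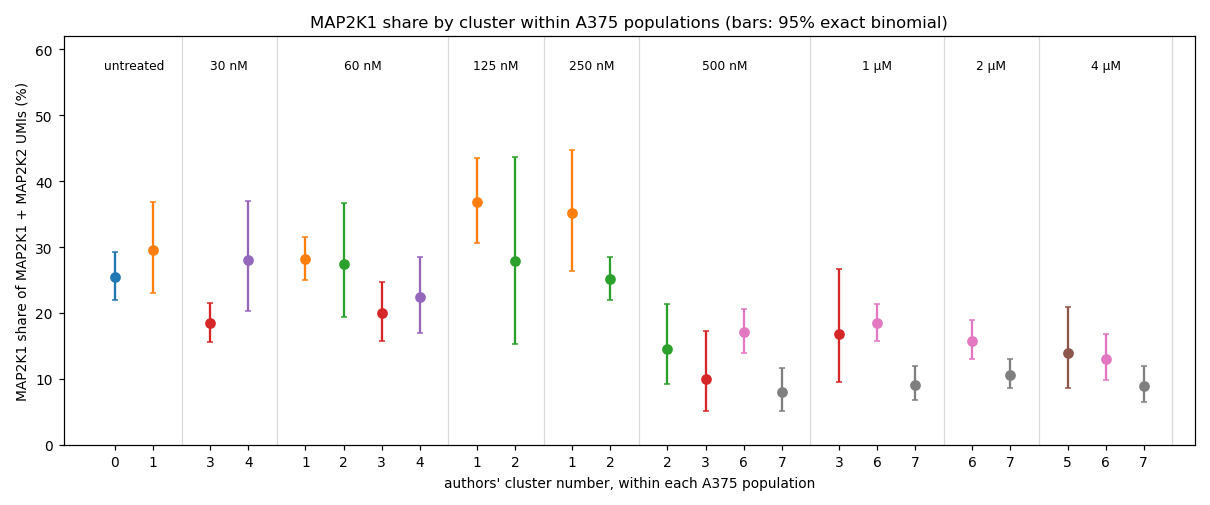
Share of MAP2K1 among UMIs of both MEK genes, in percent, in the authors' clusters of A375 cells within each population, with 95% exact binomial intervals, for clusters with at least 50 cells. From 500 nM to 4 µM cluster 7 lies at 8.0% to 10.6%, below cluster 6 of the same population at 13.1% to 18.5%. Cluster 3 at 500 nM lies at 10.0%.

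HRAS, a RAS GTPase of ubiquitous expression, was the member with the widest range in PC9. It stood at 49.5 CPM in untreated cells, at 37.6, 37.2, 34.5, 34.9, 35.5, 29.6 and 33.5 CPM from 8 to 600 nM, at 33.1 CPM at 1.2 µM and at 19.4 CPM in persisters. Untreated cells were highest and persisters lowest, and both were separate from the next population in the order of levels, while the 8 doses between them did not differ from their neighbours in that order. All 9 treated populations were below untreated cells with intervals that excluded equality, and these 9 comparisons share 1 untreated culture. The level was 1.67-fold lower at 300 nM (1.43 to 1.965), where 11.6% of genes were at least 1.5-fold lower, and 2.56-fold lower in persisters (2.05 to 3.215), where 21.8% of genes were at least 1.5-fold lower and 10.2% at least 2-fold lower. Persisters were 1.71-fold below cells adapted to the same 1.2 µM (1.345 to 2.19), where 14.3% of genes were at least 1.5-fold lower.

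Persisters also differed from untreated cells in which cells the authors listed under the label g1, 81.8% against 12.9%. Within listed cells HRAS was 44.2 CPM untreated (32.8 to 58.3) and 15.1 CPM in persisters (11.4 to 19.6), and within the other cells 50.1 CPM (45.7 to 54.8) and 33.45 CPM (23.7 to 45.9). The lower level in persisters was present in both, with the intervals of the other cells meeting at their ends. Median UMIs per cell were 7968 in untreated cells and 5776 in persisters, and the parts of depth per cell and of cell cycle phase were not tested. With the UMIs of every population thinned to the total of the shallowest, the log2 ratio was -1.21.

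NRAS, the RAS gene most often mutated in melanoma, varied less in PC9. It had a lowest level of 33.4 CPM in persisters, a median of 37.8 CPM and a highest of 41.2 CPM at 600 nM, with 36.2 CPM in untreated cells, and no treated population differed from untreated cells beyond counting error. The NRAS share of NRAS and HRAS UMIs was therefore 42.3% (39.0 to 45.55) in untreated PC9 cells, 49.5% to 55.15% in adapted cells and 63.3% (57.1 to 69.2) in persisters. The difference between persisters and untreated cells was 21.1 points (14.2 to 27.5), and intervals of all 9 differences excluded 0. These 9 differences share the same untreated culture.

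In A375 the RAS genes followed another course. HRAS stood at 87.7 CPM in untreated cells, at 105.7, 72.5, 45.9, 54.3 and 92.1 CPM from 30 to 500 nM and at 102.8, 92.3 and 86.0 CPM from 1 to 4 µM. Its levels at 125 and 250 nM were 1.91-fold (1.60 to 2.29) and 1.615-fold (1.45 to 1.80) below untreated cells, where 17.7% and 15.4% of genes were at least 1.5-fold lower. Those doses formed the low end of the order and were separate from 60 nM, and 500 nM was 1.695-fold above 250 nM (1.5 to 1.92). At 4 µM HRAS was near the untreated level, with a log2 ratio of -0.03. NRAS was 31.6 CPM in untreated cells and ranged from 26.3 CPM at 250 nM through a median of 30.6 CPM to 39.8 CPM at 30 nM. Only its 30 nM level was separate from the next population in the order. It was 1.26-fold above untreated there (1.09 to 1.45), and fell by 1.505-fold from 30 to 60 nM (1.29 to 1.76), a step at which 6.15% of genes were at least 1.5-fold lower.

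**Figure D3:**
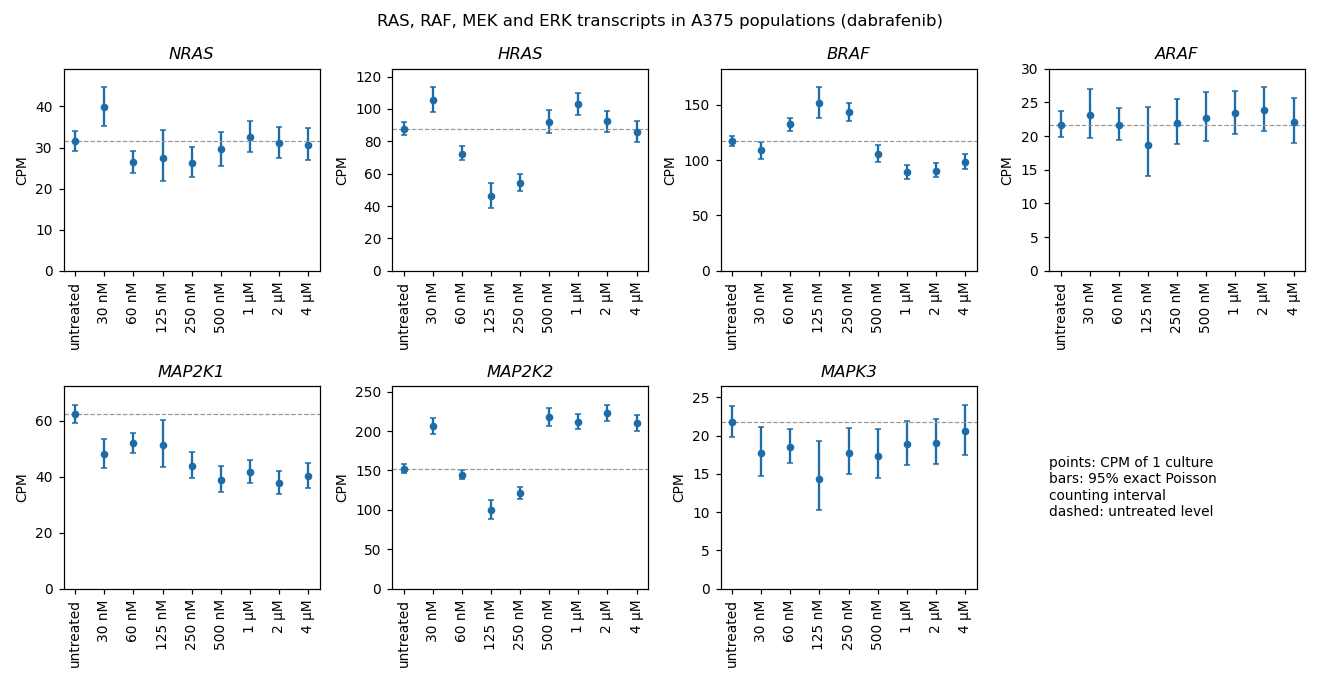
CPM of the 7 genes in the 9 A375 populations on linear axes from 0, in order of dabrafenib dose, with 95% exact Poisson intervals. HRAS and MAP2K2 dip at 125 and 250 nM, to 45.9 and 100 CPM at 125 nM, BRAF peaks at 125 nM at 151 CPM, and MAP2K1 is highest in untreated cells at 62.2 CPM.

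BRAF, the target of dabrafenib and the mutant driver of A375, stayed within 1.5-fold of untreated cells by summed CPM in every population of both lines. In A375 it stood at 117 CPM in untreated cells, at 109, 132, 151, 143 and 106 CPM from 30 to 500 nM, and at 89.2, 90.6 and 98.6 CPM from 1 to 4 µM. The level was above untreated cells from 60 to 250 nM, by up to 1.29-fold at 125 nM, and below from 500 nM on, by 1.31-fold at 1 µM and 1.19-fold at 4 µM. At 500 nM the interval included equality under the other scalings, and at 4 µM with the median of ratios. Weighting each cell equally put BRAF at 125 nM past 1.5-fold, at a log2 ratio of 0.61. In PC9, BRAF ranged from 125 CPM in untreated cells through a median of 144 CPM to 151 CPM at 300 nM, and 7 of 9 treated populations were above untreated cells, by at most 1.21-fold. With TMM scaling the intervals at 32, 150 and 600 nM and at 1.2 µM included equality.

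ARAF, the RAF kinase encoded on the X chromosome, was flat in A375. Its levels ran from 18.7 CPM at 125 nM through a median of 22.1 CPM to 23.8 CPM at 2 µM, with 21.7 CPM in untreated cells, and no population differed from untreated cells or from its neighbour in the order beyond counting error, except that the 2 µM level was above untreated cells under the other scalings and the 1 µM level with the median of ratios. In PC9 it stayed under 10 CPM in every population, from 5.06 CPM at 16 nM to 8.81 CPM in untreated cells, and did not count as measured. The BRAF share of BRAF and ARAF UMIs in A375 was 84.4% in untreated cells, 89.0% at 125 nM and 79.2% at 1 and 2 µM, and in PC9 it lay between 93.4% and 96.2%. At 4 µM in A375 the difference from untreated cells was -2.70 points (-5.61 to 0.0128), and 0.35 points when each cell was weighted equally.

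MAPK3, the gene of ERK1, was low in both lines and changed little. In A375 it was 21.8 CPM in untreated cells and ranged down through a median of 18.5 CPM to 14.3 CPM at 125 nM, the last 1.525-fold lower than untreated (1.11 to 2.14). That call was kept in 2 of the 9 alternatives. The 5 adapted populations from 30 to 500 nM were below untreated cells beyond counting error. Of these only the 125 nM level stayed below under all of the other scalings, and at 1, 2 and 4 µM the interval included equality by CPM. In PC9 it ranged from 16.1 CPM at 8 nM through a median of 22.2 CPM to 23.8 CPM in persisters, with 20.8 CPM in untreated cells. Only the 8 and 16 nM populations were below untreated cells beyond counting error.

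**Figure D4:**
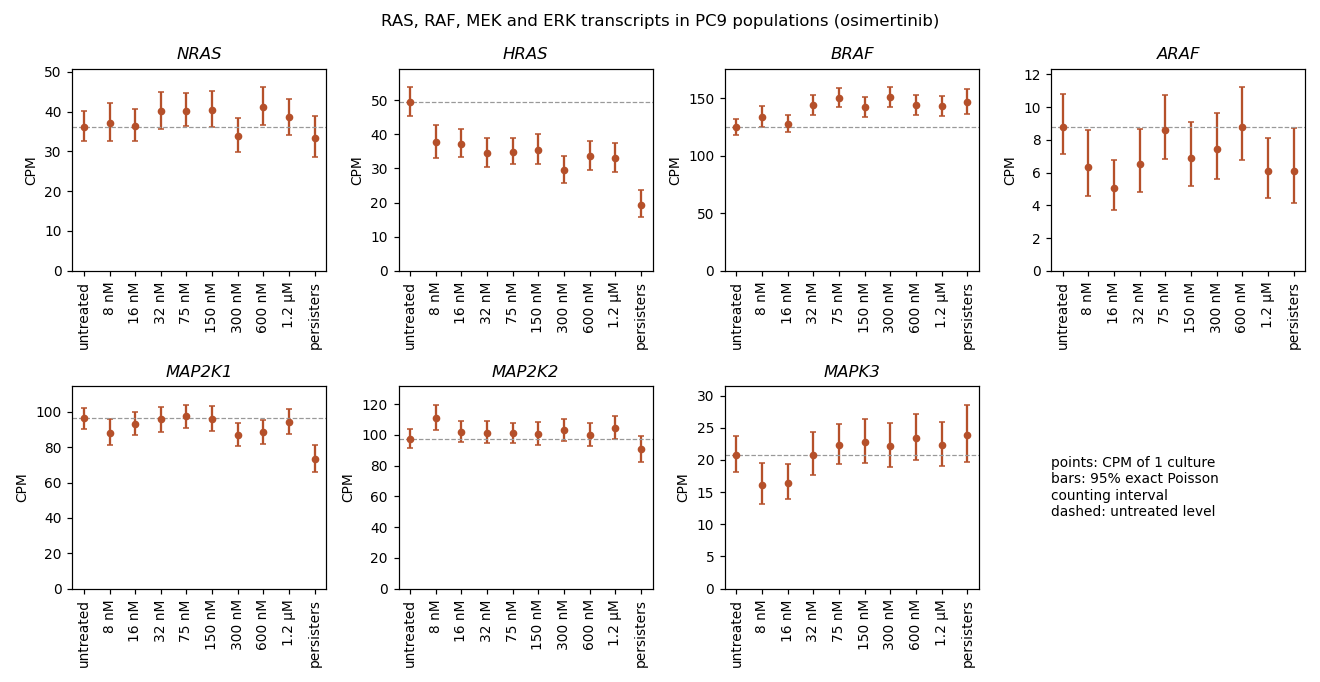
CPM of the 7 genes in the 10 PC9 populations on linear axes from 0, in order of osimertinib dose with persisters last, with 95% exact Poisson intervals. HRAS runs from 49.5 CPM in untreated cells to 19.4 CPM in persisters, while NRAS, BRAF and both MEK genes stay within 1.33-fold from lowest to highest.

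Over the measured members the median log2 ratio was -0.04 at 4 µM in A375, against -0.17 over all measured genes. In PC9 it was 0.09 at 1.2 µM and -0.11 in persisters, against 0.02 and -0.04 over all genes. At 125 nM, where 3 of the 7 A375 calls lie, it was -0.27 against -0.09.

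The genes around the cascade were described in 8 lists, counted at 2-fold or more. At 4 µM in A375, 5.97% of all measured genes were higher and 9.45% lower. Among 12 measured genes upstream of RAS 0 were higher and 1 lower, the adaptor IRS2, at 62.6 CPM against 182 CPM in untreated cells. Among 8 RAS inhibitors and GTPase activators 0 were higher and 3 lower, with RASA3 2.38-fold (2.05 to 2.77) and RASA2 2.17-fold lower, and a median log2 ratio of -0.49. Among 11 other RAS family GTPases 2 were higher and 0 lower, RRAS by 2.92-fold (2.67 to 3.18) and RRAS2 by 2.08-fold. Over these 11 GTPases the median log2 ratio was -0.02, and NRAS and HRAS stood at -0.04 and -0.03.

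Further down the cascade at 4 µM, 0 of 21 scaffolds and regulators were higher and 1 lower. The only measured gene among the other RAF, MEK and ERK kinases passed 2-fold in neither direction. Among 7 kinases that ERK activates 0 were higher and 2 lower, RPS6KA5 by 2.81-fold and RPS6KA3 by 2.17-fold. Of 14 genes of the stress MAP kinase branch 1 was higher, MAPK10, the JNK3 gene, by 3.48-fold, and 0 lower. Of 18 measured output genes 1 was higher and 10 lower, led by the inhibitor SPRY4, 12.2-fold lower (9.73 to 15.4), the ETS factor ETV4, 7.47-fold lower, and CCND1 and the phosphatase DUSP4, 4.11-fold and 3.56-fold lower.

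In PC9 at 1.2 µM, 6.55% of all measured genes were at least 2-fold higher and 4.24% lower. Of 13 genes upstream of RAS 3 were higher and 0 lower, the exchange factor RASGRP1 by 5.49-fold (4.13 to 7.41), the adaptor GAB2 by 2.27-fold and the exchange factor SOS2 by 2.02-fold. None of 6 RAS inhibitors, 23 scaffolds, 6 kinases that ERK activates or 2 other kinases of the cascade passed 2-fold, and 1 of 11 other RAS GTPases was higher. In the stress branch 1 of 14 genes was higher and 2 lower, MAP4K4 by 2.27-fold and MAPK13 by 2.13-fold. Of 14 output genes 6 were lower, among them ETV4 by 4.44-fold, PHLDA1 by 4.38-fold and ETV5 by 3.03-fold, and 1, the immediate early gene EGR1, was 9.27-fold higher (6.37 to 13.9).

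In persisters 11.4% of genes were at least 2-fold higher and 10.2% lower. Upstream of RAS 3 of 13 genes were higher and 0 lower, RASGRP1 by 4.90-fold, SOS2 by 2.98-fold (2.47 to 3.59) and the adaptor GAB1 by 2.04-fold. Of 11 other RAS GTPases 2 were higher and 1 lower, RRAS by 2.37-fold higher and RALB by 2.24-fold lower. MAP3K8, a MEK kinase outside the RAF family, was 3.035-fold higher (2.55 to 3.615), 1 of 2 measured genes of its list. Of 7 RAS inhibitors 1 was higher and 1 was lower, and 0 of 23 scaffolds passed 2-fold. RPS6KA4, 1 of 7 kinases that ERK activates, was 4.82-fold lower, and in the stress branch 1 of 14 genes was higher and 1 lower, MAPK13 by 2.36-fold. Output genes had 7 lower, with ETV5 6.28-fold, PHLDA1 5.81-fold and ETV4 5.17-fold lower, and 2 higher, with EGR1 10.7-fold higher. These comparisons share the untreated PC9 cells with those at 1.2 µM.

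The genes most like each member across populations were found by Pearson's r of log2(CPM + 1), over members with a highest level at least 1.5 times the lowest. In A375, over 9 populations and 6418 genes, BRAF was most like SLC12A2, BTBD1 and ANKRD10 (r = 0.995, 0.995 and 0.994), and MAP2K2 most like UQCR10, CSTB and ANAPC15 (r = 0.993, 0.988 and 0.987). HRAS was most like YWHAH, SVIP and POLR2E (r = 0.987, 0.986 and 0.986), MAP2K1 most like ENSA, TBCB and MTF2 (r = 0.988, 0.977 and 0.976), NRAS most like DDB2 (r = 0.952) and MAPK3 most like BRIP1 (r = 0.962). Without the populations at 125 and 250 nM, which lie farthest out for BRAF, MAP2K2 and HRAS, r with the first gene of each was 0.989, 0.976 and 0.928, with Spearman's rho over all populations of 1.0, 0.917 and 0.917. Among the members themselves MAP2K2 ran with HRAS (r = 0.925, rho = 0.75) and against BRAF (r = -0.943, rho = -0.917). Without the 2 farthest populations these became 0.696 and -0.864. In PC9, over 10 populations, HRAS was most like BAZ1B, SCMH1 and NIPA2 (r = 0.991, 0.99 and 0.986), which fell to 0.884, 0.896 and 0.914 without persisters and untreated cells. The populations of a line share 1 pool, and these values only describe likeness of pattern.

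Apart from HRAS in both lines and MAP2K2 in A375, members lay within 1.5-fold of the median ratio of their chromosomal neighbours in nearly all populations. Of 119 pairs of a member and a treated population, 10 lay at least 1.5-fold from the median of the neighbours' ratios, 3 of HRAS in A375, 3 of HRAS in PC9, 3 of MAP2K2 in A375 and 1 of ARAF in PC9. The ARAF pairs in PC9 did not count as measured. How often genes in general lie this far from their neighbours was not computed, so the count has no background share. Around HRAS, 19 measured neighbours, up to 10 on each side, had a median log2 ratio of 0.64 at 4 µM in A375, and 12 of them were at least 1.5-fold higher, against 11.2% of all genes, while HRAS was at -0.03. At 125 nM HRAS was at -0.92 and its neighbours at 0.13, and in PC9 persisters at -1.31 and -0.09. At 4 µM MAP2K2 was at 0.46 and its 20 neighbours at -0.25, MAP2K1 at -0.62 and its neighbours at -0.22, and BRAF at -0.25 with neighbours at -0.20.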

How the data were processed

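Single-cell gene expression libraries of a pool of A375 cells and a pool of PC9 cells were used, with cells assigned to populations by the suffix of the cell names. The label T0500 was taken for the suffix T05. The authors deposited unnormalized UMI counts, 1 value for each gene in each cell. Cell Ranger 7.0.0 and GRCh38 are named in the submitters' processing notes. Whether intronic reads were counted is not given in the sources used here. The authors' deposited cell tables give the total count, the number of genes, the percent of mitochondrial UMIs and the cluster of the cells they list, per the file headers. The PC9 pool was 1 library, and the A375 pool was sequenced in 2 runs that the cell names do not separate. The tag libraries enter through those names alone.

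All cells were used and no doublet caller was run. CPM are a population's summed UMIs of a gene per 1000000 of its UMIs. Levels carry 95% exact Poisson intervals, folds and shares exact binomial (Clopper-Pearson) intervals, and differences of shares Newcombe intervals. Log2 ratios are of CPM + 1. Since UMIs of a population come from 1 culture, intervals do not hold the spread between cultures. Members were taken by name, and pathway genes were named when at least 2-fold apart and, in the higher population, at 25 CPM or more, up to 4 per list and comparison. Cluster, neighbour and promoter values were described for the members only. The members and lists were chosen with earlier results of these data known. Of the listed genes, 3 are not reported here.

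Alternatives were TMM and median-of-ratios scaling, a total without mitochondrial and ribosomal protein genes, the UMIs of each population thinned to the total of the shallowest, the authors' listed cells, the mean of CPM per cell, no cells over 2 times the median UMIs, no cells at 20% or more mitochondrial UMIs, a pseudocount of 5 CPM, other minimum levels and a 2-fold threshold. On simulated data 95.1% to 95.6% of ratios lay in their intervals, for counting error alone. The simulated counts held no variation between cells or cultures, so this tests how the intervals are calculated and not how well they suit these cells. TMM factors came from edgeR 4.0.16 in R 4.3.3, and all else from pandas 2.3.3, scipy 1.17.1 and numpy 2.4.6 in Python 3.11.15.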

Additional observations from a re-analysis of the deposited data

How the results depend on the processing

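Of the alternatives, TMM scaling gave 2 higher and 4 lower A375 pairs at 1.5-fold, against 0 and 7 as reported, and 6 lower PC9 pairs, against 2. Median-of-ratios scaling gave 4 higher and 3 lower in A375 and 6 lower in PC9, and a total without mitochondrial and ribosomal protein genes gave 2, 4 and 4. The authors' listed cells gave 2, 2 and 7. The mean of CPM per cell gave 1 higher in A375 and 5 lower in PC9, and leaving out cells over 2 times the median UMIs gave 1 higher in A375. A pseudocount of 5 CPM gave 4 lower in A375, the 2-fold threshold gave 0 lower in A375 and 1 in PC9, and a minimum of 50 CPM gave 0 lower in PC9. Without the 125 nM population, an alternative chosen after seeing the data, 4 were lower in A375. Apart from the 2-fold threshold, shares over all genes were not computed under these alternatives, so their counts have no background share. The BRAF share at 4 µM differed from untreated by 0.35 points by mean CPM per cell, against -2.70. No named direction was reversed for a called value. Median-of-ratios scaling moved the median of all genes by up to 0.15 on the log2 scale, at 2 µM in A375. HRAS stayed at least 1.5-fold lower in PC9 at 300 nM, in persisters and between persisters and 1.2 µM in all 9 alternatives, and in A375 at 125 nM in all 9 and at 250 nM in 8.

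No paired analysis was possible because each population was 1 culture, and the numbers in the labels count sequencing runs. Leaving out a culture of a group was not done for the same reason. Counting error limits ARAF in PC9, with 30 to 93 UMIs per population.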
